A study of Mus musculus with 12 samples.

Results

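Transcript levels of 9 transcription factors that shape hepatocyte identity (Foxa1, Foxa2, Foxa3, Cebpa, Cebpb, Prox1, Onecut1, Onecut2 and Gata4) were described in mouse liver across 4 groups of genotype and diet. The factors were chosen by name, as the genes of the count table whose annotated symbol is on that list, and each name matched 1 of the 55357 genes in the table. Polyadenylated liver RNA was sequenced after 6 weeks of diet from C57BL/6J male mice that were 7 weeks old at the start and 13 weeks old at sacrifice. Every mouse carried floxed Ppara alleles (PPARafl/fl). The WT mice had no Cre transgene (AlbuminCre+/+) and the hepatocyte-specific PPARα KO mice had 1 copy (AlbuminCreTg/+). The albumin promoter drives Cre in hepatocytes, so the other cells of a KO liver keep Ppara. The groups were WT mice on chow diet (WT chow, n = 4 libraries), WT mice on CDAHFD, a choline-deficient, amino acid-defined high-fat diet (WT CDAHFD, n = 3), KO mice on chow diet (KO chow, n = 2) and KO mice on CDAHFD (KO CDAHFD, n = 3). Each library was taken as a separate mouse. If libraries shared an animal, the p-values would cover technical spread only.

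Hepatocyte identity is held by a network of transcription factors that bind together at the regulatory elements of liver genes and at each other's genes. FOXA proteins are pioneer factors that can bind compacted chromatin, and GATA4 opens liver genes beside them. C/EBP and ONECUT proteins bind elements opened this way, and PROX1 acts largely as a corepressor of nuclear receptors such as HNF4A. The same factors are known from other liver cells: FOXA and ONECUT proteins from bile duct cells, GATA4 from sinusoidal endothelial and stellate cells, C/EBP proteins from macrophages, and PROX1 from lymphatic endothelium.

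Total counts per library ran from 29906785 to 43551003, and 17358 of the 55357 genes, all 9 factors among them, passed the filter on low counts. The lowest count of a factor in a library was 92 and the highest was 30713. Levels are CPM, counts scaled to a common library size after TMM normalization, which takes most genes as unchanged. A gene counts as called where edgeR's quasi-likelihood test gave an adjusted p under 0.05, by the Benjamini-Hochberg method over all genes tested. Ppara, the targeted gene, was at 14.4 and 38.7 CPM in KO chow and 20.7 to 51.9 CPM in KO CDAHFD, against 96.2 to 238 CPM in WT chow and 59.5 to 75.5 CPM in WT CDAHFD (log2 fold change of KO chow against WT chow -2.68, SE 0.504, adjusted p = 0.00111). These counts cover the whole gene and all liver cells, so they do not measure the deleted part. The 11 hepatocyte markers checked were all present in every group, with a summed level of 137500 to 157800 CPM in WT chow and 67620 to 87690 CPM in KO CDAHFD.

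The 250 bases upstream of the start of Cebpa and of Onecut1 are shown. Cebpa was the factor that fell in all 3 comparisons with WT chow, and Onecut1 had the largest fold change. The sequences come from RefSeq (GRCm38.p6) and are written 5′ to 3′ on the strand of the gene. The Cebpa window is chr7:35119043-35119292 (+) and ends before the first base of this gene, which has 1 exon. The Onecut1 window is chr9:74861671-74861920 (+). Capitals mark the matches to the 9 motifs searched on both strands, a TATA box (TATAAA) in Cebpa and an E-box (CACGTG) in Onecut1.
Cebpa: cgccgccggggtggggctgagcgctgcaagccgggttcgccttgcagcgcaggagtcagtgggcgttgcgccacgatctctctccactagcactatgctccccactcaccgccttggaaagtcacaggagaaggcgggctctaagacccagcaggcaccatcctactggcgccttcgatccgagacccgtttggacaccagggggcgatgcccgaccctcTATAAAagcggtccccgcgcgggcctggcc
Onecut1: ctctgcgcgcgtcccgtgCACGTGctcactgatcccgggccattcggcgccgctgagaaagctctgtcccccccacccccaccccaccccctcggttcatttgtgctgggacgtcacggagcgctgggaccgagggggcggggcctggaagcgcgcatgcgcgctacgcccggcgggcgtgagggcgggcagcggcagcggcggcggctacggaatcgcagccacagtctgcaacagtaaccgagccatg

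The FOXA group moved in different ways. Foxa1 (ENSMUSG00000035451, GRCm38 chr12:57540628-57546916, minus strand) measured 18.01, 30.1, 46.8 and 28.9 CPM in WT chow and 25.2, 20.3 and 40.6 CPM in WT CDAHFD. It measured 13.7 and 15.3 CPM in KO chow, and 17.96, 17.4 and 17.2 CPM in KO CDAHFD. The KO libraries of both diets were thus below the lowest WT library, and the WT libraries of both diets overlapped widely. Relative to WT chow, Foxa1 fell in KO chow by 1.09 on the log2 scale (SE 0.327, adjusted p = 0.0183) and in KO CDAHFD by 0.82 (SE 0.280, adjusted p = 0.0256). In WT CDAHFD the log2 fold change was -0.11 (95% interval -0.70 to 0.48, adjusted p = 0.761). Both calls were lost with library size as the only scaling (log2 fold changes -0.68, adjusted p = 0.0921, and -0.20, adjusted p = 0.527). Without KO chow replicate 1 or 2, the adjusted p in KO chow was 0.129 or 0.0685. In KO CDAHFD it ran from 0.0608 to 0.0679 without any 1 of the KO CDAHFD libraries and was 0.0941 without WT chow replicate 3. In bulk RNA, fewer cells of a type and less RNA per cell cannot be told apart.

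Foxa2, which with Foxa1 is needed for the liver to form (ENSMUSG00000037025, chr2:148042877-148046969, minus strand), had 32.7, 34.9, 59.9 and 38.9 CPM in WT chow and 24.8, 17.5 and 51.3 CPM in WT CDAHFD. In KO chow it had 30.4 and 21.9 CPM, and in KO CDAHFD 25.4, 26.8 and 20.96 CPM. All 5 KO libraries lay under the lowest WT chow library, but edgeR called Foxa2 in no comparison. The log2 fold change against WT chow was -0.67 in KO chow (95% interval -1.46 to 0.11, adjusted p = 0.164), -0.41 in WT CDAHFD (-1.09 to 0.26, adjusted p = 0.291) and -0.77 in KO CDAHFD (-1.46 to -0.08, adjusted p = 0.0572). In KO CDAHFD, 5 of 19 alternative fits called it lower, among them DESeq2 (-0.73, adjusted p = 0.0474), the fit without the filter on low counts (-0.71, adjusted p = 0.00977) and that of only the groups compared (-0.71, adjusted p = 0.0165).

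Foxa3, the FOXA factor that persists most strongly in adult liver, was lower on CDAHFD in WT mice (ENSMUSG00000040891, chr7:19013284-19023538, minus strand). It had 44.5, 49.0, 56.4 and 79.3 CPM in WT chow, 61.1 and 61.9 CPM in KO chow, 41.2, 34.9 and 41.7 CPM in WT CDAHFD and 41.1, 41.7 and 51.8 CPM in KO CDAHFD. The KO chow values lay inside the WT chow range, and the WT CDAHFD values lay below it. Foxa3 fell in WT CDAHFD by 0.54 on the log2 scale (SE 0.174, adjusted p = 0.0198), while the log2 fold change in KO chow was 0.10 (95% interval -0.32 to 0.53, adjusted p = 0.705). With library size as the only scaling the WT CDAHFD value was 0.03 (adjusted p = 0.894) and the KO chow value was 0.52 (adjusted p = 0.0292). The WT CDAHFD call was also lost when WT chow replicate 4 was left out (-0.33, adjusted p = 0.0564), or replicate 2 of WT CDAHFD (-0.46, adjusted p = 0.0870), and in a fit of only the groups compared (adjusted p = 0.0510).

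**Figure D1:**
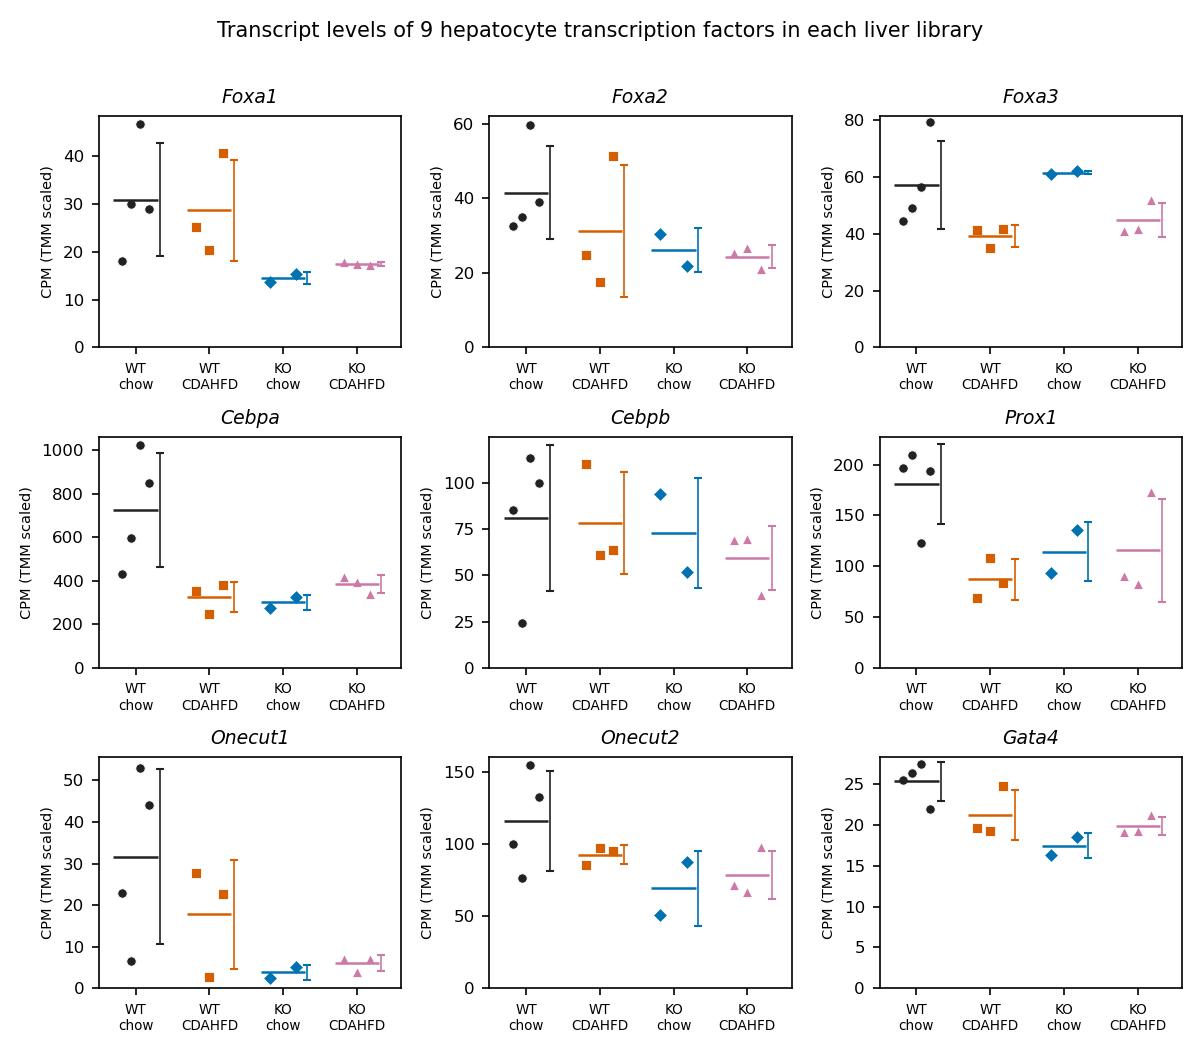
Level of each factor in CPM (linear axes from 0) by group. Each point is 1 library (n = 4 WT chow, 3 WT CDAHFD, 2 KO chow, 3 KO CDAHFD), the horizontal line is the group mean and the bar beside it is 1 SD. All Cebpa libraries of the other groups lie below the 4 WT chow libraries, while the Cebpb groups overlap throughout.

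Cebpa (ENSMUSG00000034957, chr7:35119293-35121928, plus strand) encodes C/EBPα, which holds hepatocytes out of the cell cycle and drives genes of glucose, lipid and ammonia metabolism. It had 431, 597, 1024 and 848 CPM in WT chow, 352, 248 and 380 CPM in WT CDAHFD, 277 and 326 CPM in KO chow, and 418, 397 and 337 CPM in KO CDAHFD. Every library outside WT chow was below the lowest WT chow library, although WT chow replicate 1 was only slightly above the highest of them. Cebpa fell in KO chow by 1.27 on the log2 scale (SE 0.297, adjusted p = 0.00467), to 41.5% of the WT chow level. It fell in WT CDAHFD by 1.15 (SE 0.254, adjusted p = 0.00222), to 45.02%, and in KO CDAHFD by 0.92 (SE 0.252, adjusted p = 0.00831), to 52.9%. The 3 groups outside WT chow did not differ from each other past the threshold, with 95% intervals of -0.76 to 0.52 for KO chow against WT CDAHFD and -0.34 to 0.81 for KO CDAHFD against WT CDAHFD. The KO chow call was lost without KO chow replicate 1 (-1.13, adjusted p = 0.0570), and the KO CDAHFD call with library size as the only scaling (-0.30, adjusted p = 0.269). The WT CDAHFD call held in each of 19 alternative fits, with log2 fold changes from -1.31 to -0.58.

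Cebpb (ENSMUSG00000056501, chr2:167688915-167690418, plus strand, 1 exon) encodes C/EBPβ, which is raised in liver by inflammation, fasting and regeneration. Its level was 85.3, 24.2, 114 and 99.9 CPM in WT chow, 110, 61.1 and 63.7 CPM in WT CDAHFD, 93.9 and 51.7 CPM in KO chow, and 68.9, 69.4 and 39.2 CPM in KO CDAHFD. WT chow replicate 2 was the lowest library of all 12, so the WT chow range spanned nearly all the others. The log2 fold change against WT chow was -0.15 in KO chow (95% interval -1.19 to 0.89), -0.04 in WT CDAHFD (-0.96 to 0.87) and -0.45 in KO CDAHFD (-1.37 to 0.47), with adjusted p from 0.402 to 0.940. The intervals are wide, since the libraries of Cebpb were far apart within each group. The libraries are non-directional, and 312 exonic bases of Cebpb (20.7%) lie opposite Tmem189. The counts assigned to Tmem189 ran from 239 to 1082 per library, and reads in the overlap cannot be assigned by strand.

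Onecut1 (ENSMUSG00000043013, chr9:74861921-74891781, plus strand) encodes HNF6, which acts in bile duct formation and in daily rhythms of liver lipid genes. It varied more between libraries than any of the other factors, by 21.2-fold from the lowest to the highest. It had 22.8, 6.52, 53.1 and 44.2 CPM in WT chow, 27.8, 2.84 and 22.7 CPM in WT CDAHFD, 2.50 and 5.17 CPM in KO chow, and 7.08, 3.88 and 7.14 CPM in KO CDAHFD. All 5 KO libraries were at 7.14 CPM or less, and so were WT chow replicate 2 and WT CDAHFD replicate 2. Against WT chow, Onecut1 fell in KO chow by 3.04 on the log2 scale (SE 0.921, adjusted p = 0.0196), to 12.2%, and in KO CDAHFD by 2.39 (SE 0.746, adjusted p = 0.0167), to 19.1%. The WT CDAHFD value was -0.83 (95% interval -2.33 to 0.66, adjusted p = 0.337). The KO chow call was lost without either KO chow library (-2.59, adjusted p = 0.155 without replicate 1, and -3.65, adjusted p = 0.0586 without replicate 2), where the fit takes the lone library to vary like the other groups. The KO CDAHFD call was lost without KO CDAHFD replicate 2 (-2.15, adjusted p = 0.0661) and with library size as the only scaling (-1.75, adjusted p = 0.0518). In the annotation, 2171 exonic bases of Onecut1 (52.8%) are shared with Gm20649 on the same strand, to which 0 or 1 count per library was assigned. How the authors' counting treated such shared bases is not given in the sources used here.

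Onecut2, its close relative, had 100, 76.9, 155 and 133 CPM in WT chow, 85.5, 97.8 and 95.4 CPM in WT CDAHFD, 51.2 and 87.7 CPM in KO chow, and 71.5, 66.7 and 97.8 CPM in KO CDAHFD. KO chow replicate 1 was the lowest library, and KO chow replicate 2 lay inside the WT chow range. The fall in KO chow of 0.74 on the log2 scale (SE 0.276, adjusted p = 0.0490) was at the edge of the threshold and was kept in 7 of 19 alternative fits. Without KO chow replicate 1 it was -0.39 (adjusted p = 0.427). The values in WT CDAHFD and KO CDAHFD were -0.32 (95% interval -0.84 to 0.19) and -0.56 (-1.08 to -0.04), with adjusted p of 0.278 and 0.0647.

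Prox1, which in development lets hepatoblasts spread and in adult liver restrains nuclear receptor targets, was lower on CDAHFD in WT mice (ENSMUSG00000010175, chr1:190118035-190170714, minus strand). It had 197, 209, 123 and 194 CPM in WT chow, 68.7, 108 and 84.0 CPM in WT CDAHFD, 93.6 and 135 CPM in KO chow, and 90.6, 82.5 and 173 CPM in KO CDAHFD. All WT CDAHFD libraries were below all WT chow libraries, whereas both KO groups reached into the WT chow range. Prox1 fell in WT CDAHFD by 1.06 on the log2 scale (SE 0.275, adjusted p = 0.00640), to 48.1% of the WT chow level. The call was lost with library size as the only scaling (-0.49, adjusted p = 0.168) and held in the 18 other fits. In KO chow and KO CDAHFD the log2 fold changes were -0.66 (95% interval -1.34 to 0.02, adjusted p = 0.114) and -0.65 (-1.24 to -0.06, adjusted p = 0.0621). Of 19 alternative fits, 2 called Prox1 lower in KO chow and 4 in KO CDAHFD. Without KO CDAHFD replicate 3 (173 CPM) the KO CDAHFD value was -1.06 (adjusted p = 0.00378). Without the filter on low counts it was -0.58 (adjusted p = 0.0220). The antisense transcript Prox1os, which shares 133 exonic bases with Prox1, had 6.25 to 10.9 CPM in WT chow and 1.53 to 2.99 CPM in WT CDAHFD (log2 fold change -1.91, adjusted p = 6.81e-05), and without strand its reads in those bases cannot be told from those of Prox1.

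Gata4, a zinc finger factor that opens liver genes beside FOXA proteins (ENSMUSG00000021944, chr14:63198922-63271692, minus strand), had the smallest range, 1.68-fold from the lowest library to the highest. It had 25.5, 26.4, 27.4 and 22.0 CPM in WT chow, 19.6, 19.2 and 24.8 CPM in WT CDAHFD, 16.3 and 18.5 CPM in KO chow, and 19.1, 19.25 and 21.2 CPM in KO CDAHFD. The 5 KO libraries lay below the 4 WT chow libraries, and WT CDAHFD replicate 3 lay among the latter. Gata4 fell in KO chow by 0.54 on the log2 scale (SE 0.139, adjusted p = 0.00824) and in KO CDAHFD by 0.35 (SE 0.120, adjusted p = 0.0262), with -0.26 in WT CDAHFD (95% interval -0.52 to 0.00, adjusted p = 0.0917). The KO chow call was lost with library size as the only scaling (-0.14, adjusted p = 0.487) and without KO chow replicate 1 (-0.43, adjusted p = 0.113). In KO CDAHFD the value with library size as the only scaling was 0.26 (adjusted p = 0.112), and 8 of 19 alternative fits did not keep the call.

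Among the 9 factors, 5 fell and none rose in KO chow against WT chow (Foxa1, Cebpa, Onecut1, Onecut2 and Gata4), where 39.0% of all genes were called and 17.0% were called lower. The median log2 fold change of the 9 was -0.67, and that of all genes was 0.00. In WT CDAHFD, 3 of 9 fell (Foxa3, Cebpa and Prox1), where 51.1% of all genes were called and 25.0% were called lower. The medians were -0.41 for the factors and -0.05 for all genes. In KO CDAHFD against WT chow, 4 of 9 fell (Foxa1, Cebpa, Onecut1 and Gata4), with 52.4% of all genes called and 25.4% called lower, and medians of -0.65 and -0.04. The libraries of the groups did not overlap for 5 factors in KO chow (50.2% of all genes), 3 in WT CDAHFD (55.4%) and 4 in KO CDAHFD (51.5%). The 3 comparisons share the WT chow libraries, and Cebpa was the 1 factor called in each of them.

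**Figure D2:**
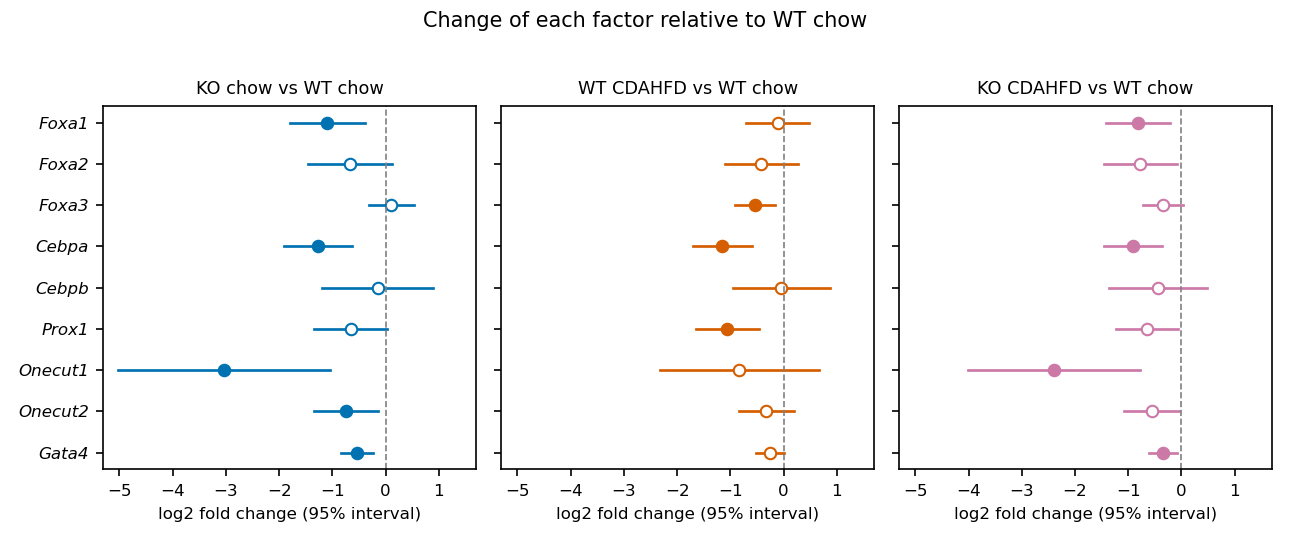
Log2 fold change of each factor against WT chow (x axes), in panels for KO chow, WT CDAHFD and then KO CDAHFD, with unadjusted 95% intervals as bars. Filled points have an adjusted p under 0.05 over all genes tested. The value of Onecut1 in KO chow (-3.04) and in KO CDAHFD (-2.39) is the farthest from 0 and has the widest interval.

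These counts depend on scaling. TMM factors were 0.729 to 0.827 in WT chow and above 1 in all other libraries. With library size as the only scaling the median of all genes moved to 0.40 (KO chow against WT chow), 0.51 (WT CDAHFD) and 0.57 (KO CDAHFD, likewise). Then 2 factors were lower (Cebpa and Onecut1) and 1 was higher (Foxa3) in KO chow, where 1149 of all 17358 genes were lower and 7037 higher. In WT CDAHFD 1 factor was lower (Cebpa), beside 1170 genes lower and 9092 higher, and edgeR called none in KO CDAHFD, beside 1095 genes lower and 9775 higher. Relative to the median of all genes under that scaling, 8 of 9 factors were lower in KO chow (Foxa3 was higher), 8 in WT CDAHFD (Cebpb was level with it) and 9 in KO CDAHFD. By definition, as many genes lie below this median as above it. Subtracting it nearly restores the TMM values (Cebpa in KO chow, -1.26 against -1.27), so these counts are no separate check on scaling. Without KO chow replicate 1 no factor was called in KO chow against WT chow, where edgeR still called 4320 genes, and without KO chow replicate 2 there were 3 (Cebpa, Onecut2 and Gata4).

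**Figure D3:**
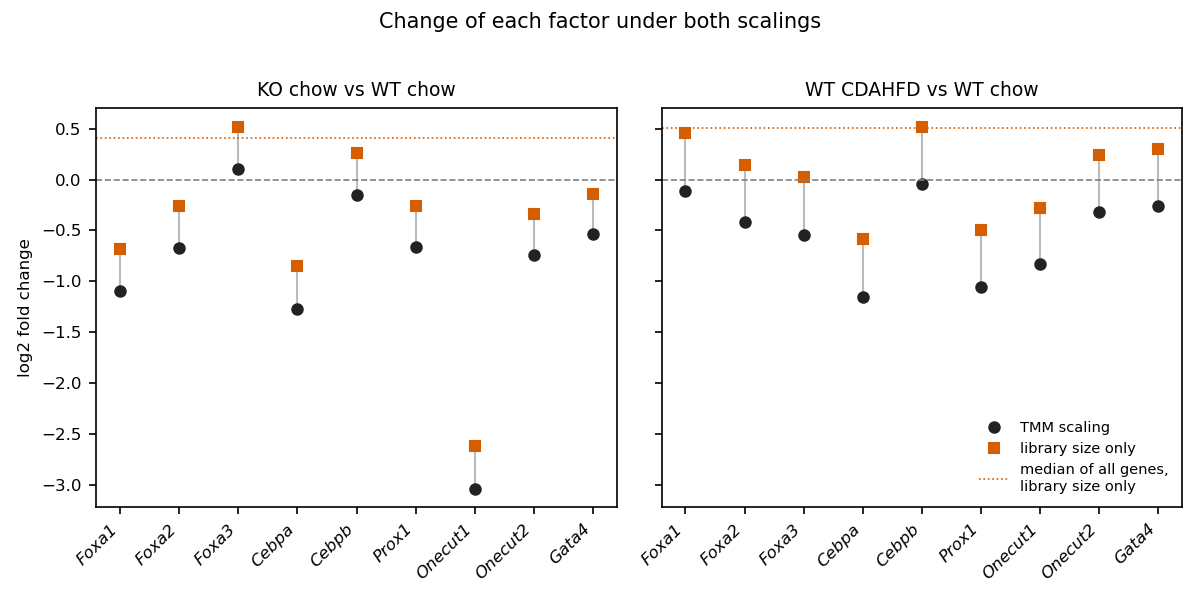
Log2 fold change of each factor (y axis) in KO chow and WT CDAHFD against WT chow, with TMM scaling (circles) and with library size as the only scaling (squares). The dotted line is the median of all genes with library size only (0.40 and 0.51). All squares lie above their circles, and those of 8 factors in KO chow lie below the dotted line.

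Between the groups other than WT chow, edgeR called no factor. In KO CDAHFD against WT CDAHFD, 0 of 9 factors and 0.357% of all genes were called by edgeR, with 1523 genes at an unadjusted p under 0.05 and 0 factors by DESeq2. Foxa1 was the factor whose groups did not overlap (20.8% of all genes), with a log2 fold change of -0.71 (95% interval -1.35 to -0.08, adjusted p = 0.506). In KO CDAHFD against KO chow 6.19% of all genes were called, and 0 factors by edgeR or DESeq2 (4002 genes at an unadjusted p under 0.05). The groups did not overlap for Foxa1, Foxa3, Cebpa and Gata4, 4 of 9 factors against 39.1% of all genes. The lowest adjusted p was that of Foxa3 (-0.46, 95% interval -0.90 to -0.01, adjusted p = 0.205). In KO chow against WT CDAHFD, 6.12% of all genes (4168 at an unadjusted p under 0.05) and 0 factors were called by edgeR, and Foxa1, Foxa3 and Gata4 did not overlap (3 of 9 factors, 48.6% of all genes). Foxa3 was at 0.65 (95% interval 0.21 to 1.09, adjusted p = 0.0785) and Foxa1 at -0.98 (-1.72 to -0.25, adjusted p = 0.101), and DESeq2 called Foxa1 (-1.01, adjusted p = 0.0268).

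The diet change of a factor in KO mice can be set against that in WT mice as an interaction, the KO change minus the WT change on the log2 scale. Cebpa changed with CDAHFD by -1.15 in WT mice and by 0.35 in KO mice (95% interval -0.29 to 0.99), and the interaction was 1.502 (SE 0.393, adjusted p = 0.0151). It was the one factor of 9 called, where 23.1% of all genes were called and 8.63% were called higher. The next largest were Onecut1 at 1.48 (95% interval -0.94 to 3.90, adjusted p = 0.384) and Prox1 at 1.07 (0.15 to 1.99, adjusted p = 0.0899). Without KO chow replicate 1 the Cebpa interaction was 1.38 (adjusted p = 0.0715). It rests on the same WT chow libraries as the falls above and on 2 KO chow libraries.

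**Figure D4:**
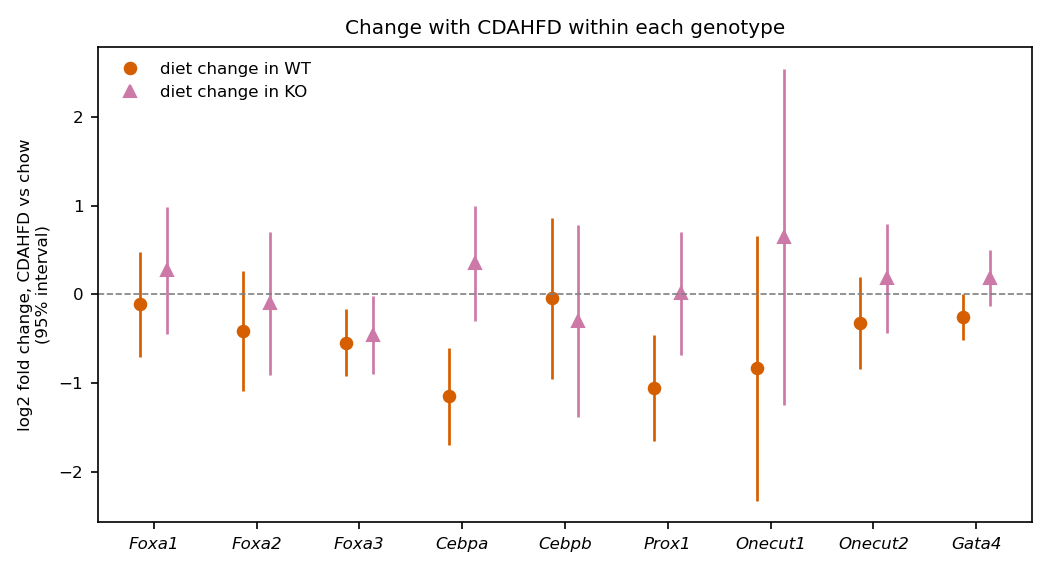
Log2 fold change of CDAHFD against chow (y axis) for each factor in WT mice (circles, 3 against 4 libraries) and KO mice (triangles, 3 against 2), with unadjusted 95% intervals. The intervals for Cebpa do not overlap, -1.70 to -0.60 in WT and -0.29 to 0.99 in KO.

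Per length of exon (RPKM, from TMM scaled CPM and GENCODE exon lengths), Cebpa was the highest of the 9 in every group, at 275 ± 99.7 RPKM (SD, n = 4) in WT chow, 124 ± 26.4 (SD, n = 3) in WT CDAHFD, 114 ± 13.2 (SD, n = 2) in KO chow and 146 ± 15.9 (SD, n = 3) in KO CDAHFD. Cebpb came next in each group, at 53.7 ± 26.2 RPKM in WT chow, followed by Foxa3 at 28.1 ± 7.58 RPKM. Cebpb and Foxa3 overlapped in WT chow but not in the other 3 groups. From Cebpb down in WT chow, each factor overlapped with the next, through Prox1 (21.6 ± 4.66 RPKM), Foxa2 (17.6 ± 5.25), Foxa1 (9.30 ± 3.57), Onecut1 (7.69 ± 5.11), Onecut2 (7.16 ± 2.13) and Gata4 (6.48 ± 0.608). Onecut1 was the lowest in the other 3 groups, at 4.32 ± 3.20 RPKM in WT CDAHFD, where it overlapped with Gata4, and at 0.932 ± 0.458 in KO chow and 1.47 ± 0.454 in KO CDAHFD, where it lay under all other factors.

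Libraries of 1 group differed in the phase of their clock genes, which oscillate over the day in liver, and the hour of collection is not given in the sources used here. A clock score, the first principal component of 15 clock genes with its sign set so that libraries with much Arntl score high, took 69.6% of their variance. It was 0.344, 1.59 and 1.57 in WT CDAHFD. In WT chow it was 3.92 and 3.35 in replicates 1 and 2 and -4.16 and -4.45 in replicates 3 and 4. The replicates with negative scores were the higher ones for Cebpa (1024 and 848 CPM, against 431 and 597) and Onecut1 (53.1 and 44.2 CPM, against 22.8 and 6.52). In the KO groups, KO chow replicate 2 (-1.85) and KO CDAHFD replicate 3 (-5.49) had negative scores. Onecut1 had 5.17 CPM in the former, against 2.50 CPM in the other KO chow library. It had 7.14 CPM in the latter, against 7.08 and 3.88 CPM in the other KO CDAHFD libraries. Cebpa had 326 CPM in the former, against 277 CPM in the other KO chow library. In the latter it had 337 CPM, against 418 and 397 CPM in the other KO CDAHFD libraries. With the score as a covariate, Onecut1 in KO chow against WT chow was at -2.72 (adjusted p = 0.0128), Cebpa was at -1.15 (adjusted p = 0.00255), and the Cebpa interaction was 1.26 (adjusted p = 0.0152). Of the 15 clock genes, 2 were lower in KO chow (Hlf, -1.55, and Clock, -0.63) and 2 in WT CDAHFD (Hlf, -1.81, and Per2, -1.27).

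**Figure D5:**
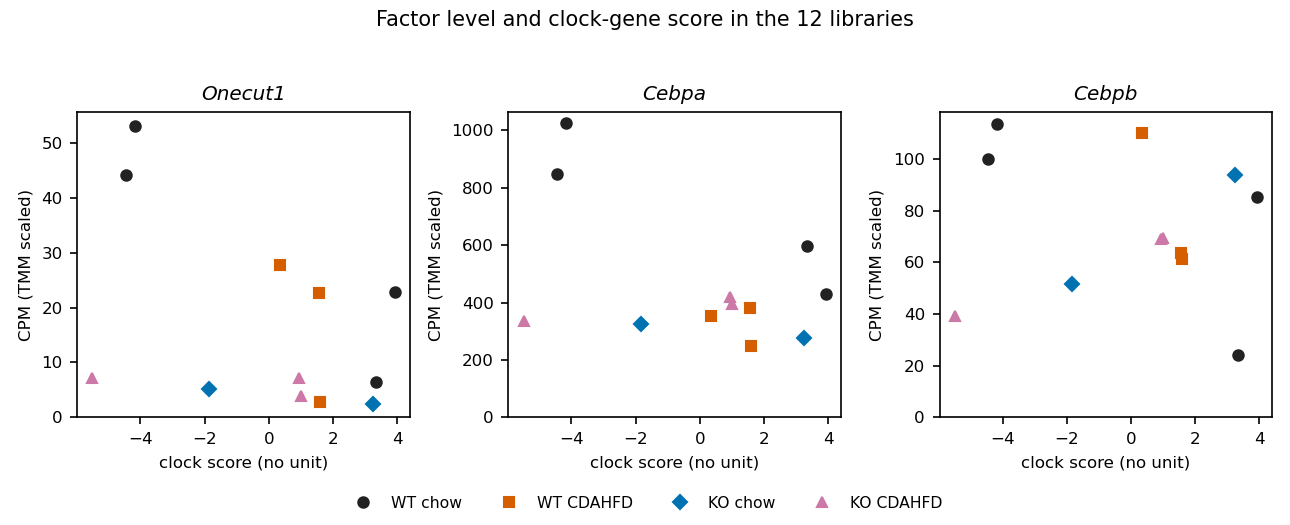
Level of Onecut1, Cebpa and Cebpb in CPM (y axes from 0) against the clock score (x axes, no unit), 1 point for each of the 12 libraries by group. For Onecut1 and Cebpa, the WT chow libraries near a score of -4 are the highest of all. At positive scores the lower WT chow library is close to the highest KO library. These have 6.52 and 7.08 CPM of Onecut1, and 431 and 418 CPM of Cebpa.

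Beyond the 9 factors, a list of 22 other transcription factors of the liver network was read from the same fit, and 15 were lower and 2 higher in KO chow against WT chow, with a median log2 fold change of -0.61. Those with the smallest adjusted p were Creb3l3, a factor for triglyceride and fasting genes (-0.996, adjusted p = 1.78e-04), Nr1h4, the bile acid receptor FXR (-1.09, adjusted p = 2.58e-04), and Nr1i3, the xenobiotic receptor CAR (-1.89, adjusted p = 3.78e-04). Of all genes, 17.0% were called lower in KO chow and 25.0% in WT CDAHFD, each against WT chow. Ppara itself is on this list of 22. In WT CDAHFD, 15 were lower and 3 higher with a median of -0.71, led by Nr1h4 (-1.30, adjusted p = 1.17e-05), the glucocorticoid-responsive Klf15 (-1.58, adjusted p = 2.75e-05) and Creb3l3 (-0.88, adjusted p = 8.4e-05). With library size as the only scaling the counts were 8 lower and 2 higher in KO chow, and 5 lower and 5 higher in WT CDAHFD. In the interaction 9 of 22 were called, all higher, where 23.1% of all genes were called and 8.63% were called higher. With library size as the only scaling 6 of 22 were higher and 1 lower. Gata6 is on both this list and that of relatives.

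Relatives of the 9 factors from the same families moved in both directions. Of 11 such genes 8 were tested, 3 higher and 2 lower in KO chow and 3 higher and 1 lower in WT CDAHFD. Ddit3, the stress-induced C/EBP protein CHOP, rose by a log2 fold change of 2.13 in KO chow (adjusted p = 3.26e-04) and 1.21 in WT CDAHFD (adjusted p = 0.00613). Cebpd, an acute phase C/EBP, rose by 1.24 (adjusted p = 0.0143) and 1.63 (adjusted p = 0.00102). Gata6 rose by 0.62 (adjusted p = 0.00321) and 0.61 (adjusted p = 0.00108), with 8.54 to 11.9 CPM in WT chow and with 14.7 and 16.1 CPM in KO chow. Cebpe (-0.62, adjusted p = 0.0209) and Prox2 (-0.64, adjusted p = 0.0321) were lower in KO chow, and Gata2 (-0.74, adjusted p = 0.0476) was lower in WT CDAHFD. None of these 3 falls was kept with library size as the only scaling. Gata3 and Cebpg were called in neither comparison. Onecut3, Gata1 and Gata5 were under the filter, and Onecut3 had at most 1 count per library, so no level was detectable at this depth.

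Genes that these factors are known to drive were read as a further list of 16. Of all genes, 17.0% were called lower in KO chow and 25.0% in WT CDAHFD, each against WT chow. Of the 16, 7 were lower and 1 was higher in KO chow, with a median log2 fold change of -0.79. In WT CDAHFD 13 were lower and none higher, with a median of -1.34. The tyrosine enzyme gene Hpd was among the lowest adjusted p in both (-1.17, adjusted p = 9.47e-04, and -1.62, adjusted p = 1.52e-05), as was the thyroxine carrier gene Ttr (-0.67, adjusted p = 0.00827, and -1.47, adjusted p = 6.66e-06). Tdo2, for tryptophan breakdown, completed them in KO chow (-1.07, adjusted p = 0.00573), and the protease inhibitor gene Serpina1c in WT CDAHFD (-2.37, adjusted p = 5.61e-06). Serpina1c belongs to a family of close copies that can exchange reads. The gene that rose in KO chow was Cyp7a1, the rate-limiting enzyme of bile acid synthesis (1.74, adjusted p = 0.0412). With library size as the only scaling, 2 targets were lower and 3 higher in KO chow, and 10 lower and 2 higher in WT CDAHFD. Of 12 acute phase genes, a group that C/EBPβ is known to drive, 3 were higher and 2 lower in KO chow and 2 were higher and 2 lower in WT CDAHFD. WT chow replicate 1 stood apart in these genes, with 668 CPM of the serum amyloid gene Saa1 against 43.95 to 54.5 CPM in the other WT chow libraries, and without it 9 were higher and 1 lower in KO chow and 9 higher and 2 lower in WT CDAHFD. Leaving out this library kept the calls of the 9 factors in both comparisons. Under library size scaling, 4 acute phase genes were higher and none lower in KO chow, and 6 higher and 1 lower in WT CDAHFD. Lcn2, a secreted iron-binding protein, had the largest change (4.24, adjusted p = 9.79e-04, and 5.78, adjusted p = 6.13e-05). Fgb fell in both comparisons (-0.77, adjusted p = 0.00638, and -1.31, adjusted p = 3.54e-05). Itih4 fell in WT CDAHFD (-0.82, adjusted p = 1.05e-04), and Apcs rose in KO chow (1.07, adjusted p = 0.0033).

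Markers of liver cell types moved with the same groups. In KO chow against WT chow, 22.0% of all genes were called higher and 17.0% lower. In WT CDAHFD 51.1% were called, with 25.0% of all genes lower. Of 11 hepatocyte markers, 8 were lower in KO chow and 10 were lower in WT CDAHFD. Their summed level was 109400 to 117500 CPM in KO chow and 72270 to 84560 CPM in WT CDAHFD, and Cyp2e1 (-2.51) and Serpina3k (-2.02) had the smallest adjusted p in KO chow. With library size as the only scaling the counts were 2 lower and 2 higher in KO chow, and 8 lower and 1 higher in WT CDAHFD. Of these markers, Alb, Ttr, Apoa1, Trf and Cps1 are also on the list of targets above, so the 2 lists are not separate. Of 11 cholangiocyte markers, 9 were higher and 1 lower in KO chow and 10 higher in WT CDAHFD, with sums of 77.4 to 115 CPM (WT chow), 221 to 348 CPM (KO chow), 436 to 673 CPM for WT CDAHFD and 679 to 1027 CPM for KO CDAHFD. Of 11 stellate cell markers 8 were higher in both, with sums of 284 to 401 CPM for WT chow, 1411 to 1553 CPM for KO chow, 1578 to 1680 CPM for WT CDAHFD and 1697 to 2318 CPM for KO CDAHFD. Of 11 macrophage markers 9 were higher in KO chow, and 8 were higher and 1 lower in WT CDAHFD, with sums of 343 to 623, 1265 to 1495 and 2129 to 2944 CPM in WT chow, KO chow and WT CDAHFD and 2174 to 2404 CPM in KO CDAHFD. Of 11 sinusoidal endothelial markers, 1 was higher in KO chow, and 1 was higher and 5 lower in WT CDAHFD, with sums between 305 and 604 CPM over the 4 groups. Under library size scaling alone, 2 of them were higher in KO chow, and 3 were higher and 1 lower in WT CDAHFD. Of 6 lymphatic endothelial markers 2 were higher in both (sums of 81.1 to 104 CPM in WT chow and 119.8 to 178 CPM in the others). They were Reln and Lyve1 in KO chow, and Reln and Pdpn in WT CDAHFD. Reln is also on the stellate list and Lyve1 on the sinusoidal list. Among 10 lymphocyte markers 4 and 3 were higher and 1 lower in each, and of 5 neutrophil markers tested 4 were higher in both. No list had a marker at 0 in all libraries of a group except the neutrophil list, with Ly6g at 0 in WT chow. The part of these markers' cells in the levels of the 9 factors was not tested.

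For each factor, the other genes with the most similar profile were named by the root mean square difference of log2 CPM over the 12 libraries, each gene centred on its mean, among 13356 genes. The closest to Cebpa were Eva1a (0.161) and Hoga1 (0.184), against a spread of Cebpa itself of 0.592. Those of Foxa1 were Gna12 (0.201) and Cdc14b (0.239), and those of Foxa3 were Epb41l5 (0.129) and Fbxo34 (0.138). Onecut2 lay closest to Tulp4 (0.109) and Vps13b (0.121), and Gata4 to Sh2b1 (0.113) and Fance (0.115). The values were larger for Foxa2 (Hsf4, 0.288, and Zfp768, 0.293), Prox1 (Sbk1, 0.232, and Epm2aip1, 0.254) and Cebpb (Nr4a2, 0.406, and Zfp628, 0.412). Those of Onecut1 were Gm16984 (0.728) and Zyg11a (0.739), against a spread of Onecut1 itself of 1.47.

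RefSeq promoter windows of 250 bases (GRCm38.p6) were at hand for 7 of the 9 factors, 10 windows in all, and were searched on both strands for 9 motifs. A PPAR element of the direct repeat type (AGGTCA, any base, AGGTCA, in 0.0335% of the windows of all genes) and its single site (AGGTCA, 14.0%) had no match in them. The TATA box (TATAAA, 12.4%) matched in Cebpa from position -30 to -25 before the start, in Foxa3 from -36 to -31, in Prox1 from -34 to -29 on the other strand, and in 1 Foxa2 window. The E-box (CACGTG, 6.02%), the element through which clock proteins act, matched in Onecut1 from -232 to -227. The FOXA motif (TGTTTAC, 3.17%) matched in Foxa1 on the other strand, the ONECUT motif (ATTGAT, 6.72%) and the GATA motif (AGATAA, 9.99%) in 1 Foxa2 window each, and the CCAAT box (CCAAT, 33.8%) in Foxa1, Foxa2 and Foxa3. The C/EBP motif (TTGCNNAA, 9.56%) had no match, and the Cebpb window, at 81.6% G and C, had none for any of the 9. These matches describe letters in the windows only.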

How the data were processed

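Liver RNA was sequenced in 12 poly-A selected, non-directional libraries. Per the labels and the methods of the study, the authors checked reads with FastQC 0.11.5 and aligned them to GRCm38 with STAR 2.7.3a, and they deposited a table of read counts per Ensembl gene, without normalization. The counting program and annotation release are not given in the sources used here. Symbols, exon lengths and overlaps came from GENCODE M21, which held 52081 of the 55357 identifiers. Each library's group and number were read from its title. The column name of KO chow replicate 2 carries the number 3. The methods state that 3 animals per group were sequenced, whereas the libraries analysed here were 4 for WT chow and 2 for KO chow, and the difference was not resolved.

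Counts were analysed in R 4.3.3 with edgeR 4.0.16: filterByExpr with the groups given, TMM scaling, and a quasi-likelihood fit with a mean for each group over all 12 libraries, so that the groups share an estimate of the spread. SEs are the log2 fold change divided by the square root of F, and 95% intervals are unadjusted. Alternatives were DESeq2 1.42.0, other scalings, no filter, a replicate block, the clock score, only the groups compared, and leaving out each library. The fit was also run on simulated counts with equal numbers of genes raised and lowered in KO chow, which does not test the scaling. RPKM divides TMM scaled CPM by exon length in kb. Similar profiles used a prior count of 2 and genes with a mean of at least 1 CPM. Figures and tables used Python 3.11.15, pandas 2.3.3 and matplotlib 3.10.9.

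The factors and all gene lists were chosen with earlier results of these data known. The named genes were the 9 factors, Ppara, genes that overlap a factor, the 2 most similar profiles of each, and the relatives. The lists of other factors, targets, acute phase genes and clock genes gave up to 3 called genes each, those with the smallest adjusted p. This was done in KO chow and in WT CDAHFD, each against WT chow. Cell type markers were given mostly as counts, with few of their genes named. Cyp7a1, Saa1 and Ly6g were named after their values were seen, and the comparison of KO CDAHFD with WT chow and its alternatives were added after the data were seen. KO chow has 2 libraries, and the factors had 92 to 30713 counts per library. The labels name no sequencing batch.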

Additional observations from a re-analysis of the deposited data

Results flagged for a closer look

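The diet change of Cebpa differed between the genotypes, by a test of the difference itself. The log2 fold change of CDAHFD against chow was 1.502 higher in KO mice than in WT mice (SE 0.393, adjusted p = 0.0151 in edgeR's interaction test over all genes, where 23.1% of genes were called). Cebpa was lower in 3 of 3 WT CDAHFD libraries than in every WT chow library, and higher in 3 of 3 KO CDAHFD libraries than in both KO chow libraries. The groups likewise did not overlap for 55.4% of all genes in WT mice and 39.1% in KO mice. In KO mice the gap was narrow, with 326 CPM in the highest KO chow library and 337 CPM in the lowest KO CDAHFD library. The KO change alone was not past the threshold (0.35, adjusted p = 0.526). Over 18 alternative fits the interaction ran from 1.14 to 1.68, and it was past the threshold in 17.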

How the results depend on the processing

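Of 1188 values of single factors under the alternatives, 1054 kept their direction and their side of the threshold, 41 lost a call in the same direction, 37 gained one and 56 changed sign, among them 2 called values (Foxa3 in WT CDAHFD and Gata4 in KO CDAHFD, both with library size as the only scaling). The cause of each change was not tested. KO chow rests on 2 libraries.

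With library size as the only scaling, 86.0% of all calls in KO chow against WT chow, 88.6% in WT CDAHFD against WT chow and 89.9% in KO CDAHFD against WT chow were higher, where TMM gave 3814 higher and 2949 lower calls in the first, and 90.0%, 26.0%, 19.1% and 13.7% were higher in KO CDAHFD against KO chow, KO CDAHFD against WT CDAHFD, KO chow against WT CDAHFD and the interaction. Factors called were then 3 (KO chow against WT chow), 1 (WT CDAHFD) and 0 (KO CDAHFD). Log2 fold changes that changed sign were those of Cebpb in KO chow (0.26), of Foxa1 (0.45), Foxa2 (0.14), Foxa3 (0.0275), Cebpb (0.51), Onecut2 (0.25) and Gata4 (0.30) in WT CDAHFD, of Foxa3 (0.28), Cebpb (0.16), Onecut2 (0.0664) and Gata4 (0.26) in KO CDAHFD against WT chow, of Foxa2 in KO CDAHFD against KO chow (0.10), and of Foxa2 (-0.0410) and Foxa3 (-0.27) in the interaction. DESeq2 size factors changed 1 call, Onecut2 in KO chow (adjusted p = 0.0535).

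The genes called in KO CDAHFD against WT CDAHFD numbered 244 in DESeq2, 215 without the filter on low counts, 176 with the clock score and 154 in a fit of only those groups, against 62. In KO CDAHFD against KO chow DESeq2 called 1885 and the fit of only those groups 581, against 1075. For KO chow against WT CDAHFD, the genes called were 2062 in DESeq2 and 1397 without the filter, against 1063. They were 2360 with the clock score and 1985 in the fit of only those groups. The factors called in these fits were, in that order, 1, 3, 3 and 1, against 0. The clock score gave 7 factors called in KO CDAHFD against WT chow, where 9894 of 17358 genes were called. In KO CDAHFD against KO chow it gave 1 (Foxa3, -0.57, adjusted p = 0.0273), with 1603 genes called. Without the filter there were 2 in the interaction (Cebpa and Prox1), with 4004 of 30104 genes called. Cebpb in WT CDAHFD changed sign in DESeq2 (0.000357), without the filter (0.0168), with the clock score (0.0196) and in the fit of only the groups compared (0.0105). With the clock score so did Foxa1 in WT CDAHFD (0.000212), Prox1 in KO CDAHFD against KO chow (-0.0541) and the Foxa3 interaction (-0.14).

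Leaving out 1 library at a time gave 4320 to 7128 genes and 0 to 6 factors called in KO chow against WT chow, 2 to 5 factors in WT CDAHFD, and 1 to 5 factors in KO CDAHFD against WT chow. It gave 26 to 75 genes in KO CDAHFD against WT CDAHFD, 233 to 1437 genes in KO CDAHFD against KO chow, 260 to 1469 genes and 0 to 1 factors in KO chow against WT CDAHFD, and 0 to 2 factors in the interaction. With both KO chow libraries kept, these fits tested 17121 to 17387 genes. For WT CDAHFD against WT chow, 7299 to 8984 of them were called. The genes called numbered 7919 to 9023 for KO CDAHFD against WT chow and 3040 to 4630 for the interaction. Over all fits that left out 1 library, some values crossed 0. Against WT chow they were Cebpb in KO chow (-0.62 to 0.22) and WT CDAHFD (-0.37 to 0.19), and Foxa1 in WT CDAHFD (-0.44 to 0.18). In KO CDAHFD against WT CDAHFD they were Foxa2 (-0.64 to 0.20), Gata4 (-0.16 to 0.0304) and Prox1 (-0.00705 to 0.60). In KO CDAHFD against KO chow they were Foxa2 (-0.32 to 0.17), Cebpb (-0.67 to 0.21), Prox1 (-0.40 to 0.30) and Onecut2 (-0.13 to 0.62). In KO chow against WT CDAHFD they were Cebpb (-0.61 to 0.26), Foxa2 (-0.54 to 0.30) and Cebpa (-0.28 to 0.00603), and in the interaction Cebpb (-0.63 to 0.22) and Foxa3 (-0.10 to 0.19). With WT CDAHFD replicate 3 left out, Foxa2 (-0.97, adjusted p = 0.00913) and Gata4 (-0.38, adjusted p = 0.0278) were called in WT CDAHFD.

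The replicate numbers did not pair the libraries: the deviations from group means correlated over 0.1 in 3 of 15 pairs of the same number (range -0.242 to 0.266) and in 7 of 38 other pairs. With the replicate number as a block, KO CDAHFD against KO chow had 640 genes and 1 factor called (Foxa3, -0.54, adjusted p = 0.0467). Likewise, KO chow against WT CDAHFD had 731 genes and 1 factor called (Foxa3, 0.73, adjusted p = 0.0113). Under the block Onecut1 (-1.78, adjusted p = 0.108) and Onecut2 (-0.50, adjusted p = 0.163) were not called in KO chow against WT chow, while Foxa3 (0.39, adjusted p = 0.0428) was, as was Gata4 in WT CDAHFD (-0.33, adjusted p = 0.0386). Values that changed sign under the block were Cebpb in KO chow (0.0297) and WT CDAHFD (0.13), Prox1 (-0.0208) and Onecut1 (-0.0631) in KO CDAHFD against KO chow, Foxa2 (0.0570) and Cebpa (0.0201) in KO chow against WT CDAHFD, and the Foxa3 interaction (-0.20).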
